A study of Mus musculus with 2 samples.

Results

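The miR-26 genes of the mouse are Mir26b, Mir26a-1 and Mir26a-2, each lying inside a gene for a small C-terminal domain phosphatase. They were taken by gene name from 2 tables of microRNA (miRNA) gene counts in newborn hindbrain, and all 3 were found among the 1973 genes of the tables. The libraries were made from RNA of under 30 nucleotides, from the single hindbrain of pup 3 and of pup 1. Both pups were of strain B6NCrl at postnatal day 0, with no treatment or allele given and sex not recorded. The labels number the pups as biological replicates but carry a single donor identifier for both. They form 1 group, so there is no contrast between conditions, and any test between the pups compares 2 libraries.

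A miRNA is cut from a hairpin precursor, and its seed, bases 2 to 8 from the 5′ end, pairs with target messenger RNAs. The Ctdsp phosphatases that host miR-26 act on the tail of RNA polymerase II and take part in silencing of neuronal genes by the repressor REST outside the nervous system. In zebrafish, miR-26b represses its own host gene ctdsp2 as neurons form. Ezh2, a histone methyltransferase gene, is a known target of miR-26a in mammals.

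The mature sequences below, from RefSeq on GRCm38.p6, show where the 3 genes differ and where a read cannot tell them apart, with the seed in capitals. Both Mir26a genes make the same 5′ arm, so miR-26a-5p is given once.
miR-26b-5p: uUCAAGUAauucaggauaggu
miR-26a-5p: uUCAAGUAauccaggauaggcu
miR-26b-3p: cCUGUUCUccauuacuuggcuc
miR-26a-1-3p: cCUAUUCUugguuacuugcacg
miR-26a-2-3p: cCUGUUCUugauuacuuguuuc

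The 5′ arms of all 3 genes share the seed UCAAGUA. No other gene among the 1005 hairpins of the RefSeq table made a mature miRNA with this seed. Over the 21 bases they have in common, miR-26a-5p and miR-26b-5p differed at 2, written C11U and C21U (the base of miR-26a-5p, the position from its 5′ end, the base of miR-26b-5p). Both lie outside the seed. The 3′ arms were less alike. Those of Mir26a-1 and Mir26a-2 differed at 6 of 22 bases, and 1 of these, A4G (base of miR-26a-1-3p first, counted in the same way), falls within the seed. The 3′ arms of Mir26a-2 and Mir26b thus have the same seed, CUGUUCU, and differed at 4 of 22 bases.

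The hairpins are shown to set the shared arm in its context, with both mature arms in capitals.
Mir26b: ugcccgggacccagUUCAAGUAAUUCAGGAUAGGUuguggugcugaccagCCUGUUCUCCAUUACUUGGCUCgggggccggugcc
Mir26a-1: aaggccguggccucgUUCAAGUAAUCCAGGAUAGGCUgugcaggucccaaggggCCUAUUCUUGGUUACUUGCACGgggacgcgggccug
Mir26a-2: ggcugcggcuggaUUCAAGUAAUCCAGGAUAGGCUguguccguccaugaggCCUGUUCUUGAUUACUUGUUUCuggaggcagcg

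Mir26a-1 and Mir26a-2 have 71.1% of aligned hairpin bases in common, against 67.0% for Mir26a-1 with Mir26b and 66.3% for Mir26a-2 with Mir26b. What set the Mir26a pair apart was 1 unbroken stretch of 25 identical bases, which starts with the first base of miR-26a-5p and runs 3 bases past its last. The longest stretch shared with Mir26b was 11 bases for Mir26a-1 and 10 bases for Mir26a-2. Of all windows of 20 bases along each hairpin, 0 of 66 in Mir26b occurred in the hairpin of another gene, compared with 6 of 71 in Mir26a-1 and 6 of 65 in Mir26a-2. A read lying within the 25-base stretch matches both Mir26a genes equally. The deposited tables give reads that match several genomic places to no gene. Counts of Mir26a-1 and Mir26a-2 therefore leave out reads of miR-26a-5p with its annotated ends, whatever its abundance, while counts of Mir26b can hold both of its arms. Sequence outside miRNA hairpins was not searched.

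**Figure D1:**
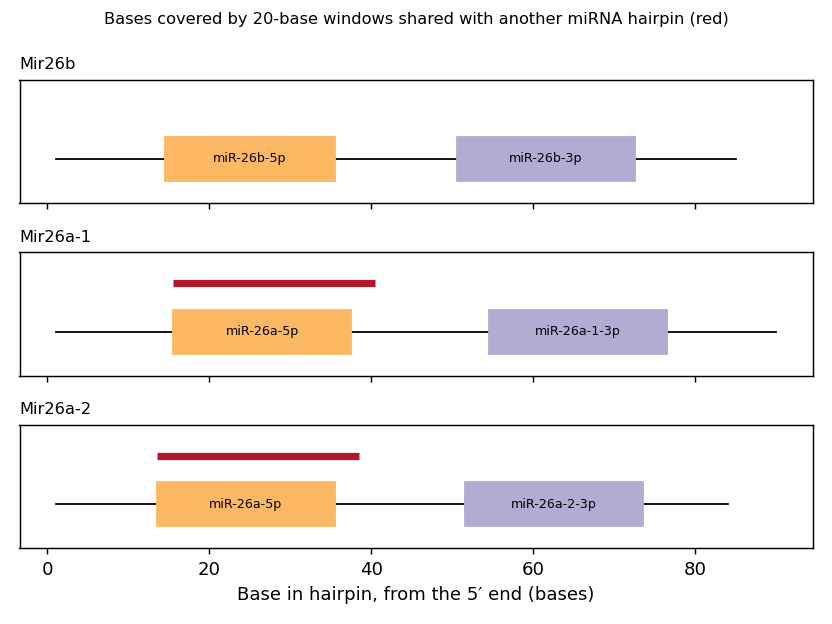
Hairpins of Mir26b, Mir26a-1 and Mir26a-2 drawn to scale, with the x axis in bases from the 5′ end. Boxes are the mature arms (5′ orange, 3′ purple), and the red bar covers the 25 bases whose 20-base windows recur in the other Mir26a hairpin; Mir26b has none.

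The host annotation (GENCODE M21, GRCm38, the assembly of mm10) places all 3 on the plus strand. Mir26b (ENSMUSG00000065468.1), at chr1:74394310-74394394, lies in intron 4 of a 7-exon coding transcript of Ctdsp1. This intron is the shortest of the 3 at 564 bases, with 234 bases before the hairpin and 245 after it. Mir26a-1 (ENSMUSG00000065513.1), at chr9:119031796-119031885, lies in intron 5 of an 8-exon coding transcript of Ctdspl, an intron of 3283 bases with 1543 before the hairpin and 1650 after it. Mir26a-2 (ENSMUSG00000065430.1), at chr10:126995530-126995613, lies in intron 5 of an 8-exon coding transcript of Ctdsp2, an intron of 1946 bases with 1621 before the hairpin and 241 after it. Each host also has transcripts that do not span the hairpin. In addition, a pair of 3-exon Ctdsp2 transcripts, 1 of them coding, start at 126995613, the last base of its hairpin, and so overlap it by 1 base.

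Mir26b was among the most abundant miRNA genes counted in the newborn hindbrain, while both Mir26a genes had few counts of their own. Levels are given as CPM, a gene's reads on its own strand scaled to 1000000 such reads over all miRNA genes of the library. These totals were 6238680 in pup 3 and 4906127 in pup 1. Mir26b had 123848 counts in pup 3 and 70468 in pup 1. Its level was 19852 CPM in pup 3 (exact Clopper-Pearson 95% interval 19742 to 19961) and 14363 CPM in pup 1 (14258 to 14469). The mean was 17107 ± 3881 CPM (SD, n = 2). Intervals cover counting error only and take each read as a separate molecule.

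Mir26a-2 had 330 counts in pup 3 and 314 in pup 1, or 52.9 CPM (interval 47.3 to 58.9) and 64.0 CPM (57.1 to 71.5), with a mean of 58.4 ± 7.85 CPM (SD, n = 2). Mir26a-1 had 65 counts in pup 3 and 71 in pup 1, or 10.4 CPM (8.04 to 13.3) and 14.5 CPM (11.3 to 18.3), with a mean of 12.4 ± 2.87 CPM. The ranges of the 3 genes over the pups did not overlap, and their order was Mir26b, Mir26a-2, Mir26a-1 in each pup. The level of 2 CPM set for detection was reached in both pups by 407 genes (20.6%), all 3 miR-26 genes included. On the opposite strand all 3 had 0 counts in both pups, which allows at most 0.481 CPM in pup 3, and 0.611 CPM in pup 1, taking 3 counts per library as the floor. In tissue of mixed cells, fewer cells of a type and less RNA per cell cannot be told apart.

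**Figure D2:**
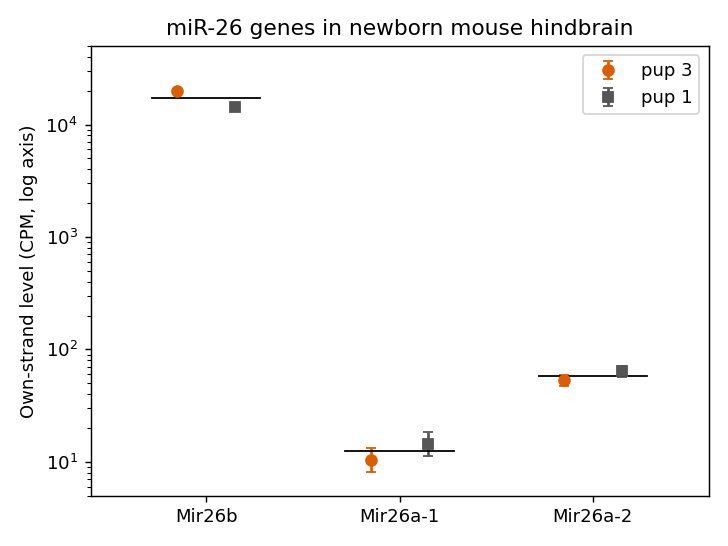
Own-strand level (CPM, log axis) of each miR-26 gene in pup 3 (circle) and pup 1 (square), with exact 95% intervals for counting error and a line at the mean of the 2 pups. Mir26b stands at 19852 and 14363 CPM, far above Mir26a-2 at 52.9 and 64.0 CPM and Mir26a-1 at 10.4 and 14.5 CPM.

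Per length of the annotated hairpin the order was the same. Levels per length were 201264 ± 45657 CPM per kb for Mir26b (85 bases), 696 ± 93.5 CPM per kb for Mir26a-2 (84 bases) and 138 ± 31.8 CPM per kb for Mir26a-1 (90 bases), as SD with n = 2. Together the 3 genes took 1.99% of own-strand counts in pup 3 and 1.44% in pup 1. Of these family counts, Mir26b supplied 99.7% in pup 3 and 99.5% in pup 1.

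The single-copy gene exceeded the pair of 2-copy genes in both pups, but by different factors. Mir26b had 314 times the summed counts of Mir26a-1 and Mir26a-2 in pup 3 (exact binomial 95% interval 284 to 347) and 183 times in pup 1 (166 to 203). These intervals did not overlap. The ratio is of reads that could be placed at 1 gene and does not compare the mature miRNAs miR-26b and miR-26a. Reads at several genomic places numbered 5639848 in pup 3 and 4601400 in pup 1, close to the own-strand totals themselves, at 0.904 and 0.938 times these. How many of them were miR-26a-5p was not tested.

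Within the 2-copy pair, where the same reads of the shared arm are missing from both, Mir26a-2 had 5.08 times the counts of Mir26a-1 in pup 3 (interval 3.88 to 6.73) and 4.42 times in pup 1 (3.41 to 5.81). These intervals overlapped widely. The mean ratio was 4.75 ± 0.463 (SD, n = 2). Reads that single out a Mir26a gene come from its 3′ arm, its loop, or ends beyond the shared stretch. The counts do not separate these, so this ratio is not one of transcription of Ctdsp2 and Ctdspl.

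By mean level Mir26b ranked 11 of the 407 detected genes, at rank 10 in pup 3 and 15 in pup 1, with ranks taken on CPM and not per length. All ranks are of reads placed at 1 gene, so genes that share sequence with others can rank too low. Above it stood Mir30e, from the same kind of setting in an intron of Nfyc, at 21246 ± 7429 CPM, and Mir100 at 24926 ± 3980 CPM. Below it came Mir99b at 15870 ± 1892 CPM and Mir10b, a miRNA of the Hoxd cluster, at 14983 ± 6974 CPM. Mir30e, Mir99b and Mir10b each had an SD between the pups larger than their distance from the mean of Mir26b. Their order with Mir26b was not the same in both pups. Mir30e had 15993 CPM in pup 3, under Mir26b, and 26500 CPM in pup 1, above it. Mir99b had 14533 CPM in pup 3, under Mir26b, and 17208 CPM in pup 1, above it. Likewise Mir10b had 10051 CPM in pup 3, against 19914 CPM in pup 1. A narrower set held the 164 detected genes inside a protein-coding gene on the same strand that touch no exon of any of its transcripts. Among them Mir26b ranked 4, after Mirlet7g, Mir335 and Mir30e, and their median was 103 CPM. This rule left out Mir126a, in Egfl7, which stood above Mir26b at 51803 ± 5634 CPM. It also left out Mir26a-2, which overlaps an exon of some Ctdsp2 transcripts by 1 base.

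Mir26a-2 ranked 258, between Mir103-2 at 59.3 ± 47.3 CPM and Mir450b at 56.0 ± 9.44 CPM. Mir20b, next above, had 60.5 ± 20.8 CPM, and Gm23935, next below, 48.9 ± 27.4 CPM. Mir26a-1 ranked 306, with Mir3057 at 13.1 ± 5.13 CPM and Mir1982 at 12.8 ± 3.56 CPM above it, and Mir344c at 11.9 ± 1.54 CPM and the myosin-gene miRNA Mir499 at 11.1 ± 0.151 CPM below. None of these neighbours was separated from its Mir26a gene by more than the spread between pups. The median over all detected genes was 178 CPM, above both Mir26a genes.

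**Figure D3:**
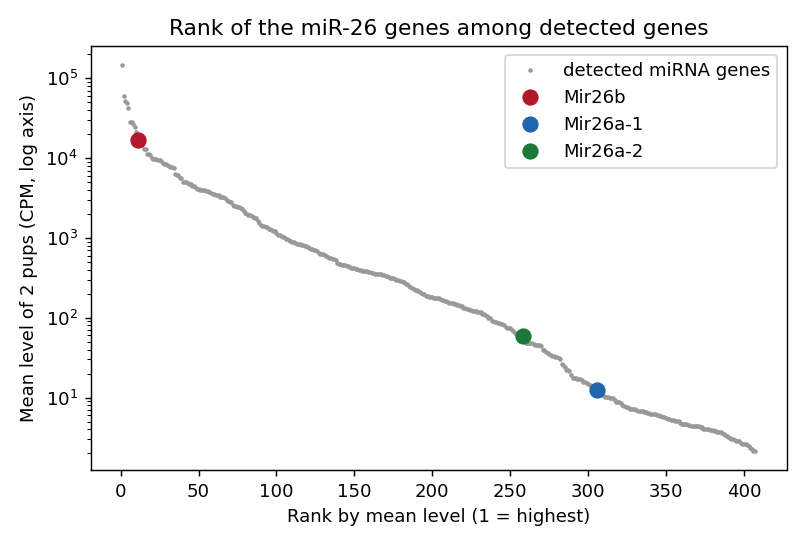
Mean level of the 2 pups (CPM, log axis) of the 407 detected genes against their rank, 1 being the highest. Mir26b sits at rank 11, Mir26a-2 at 258 and Mir26a-1 at 306. Reads at several genomic places are not counted.

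The place of the miR-26 genes among single-copy and multi-copy genes was described next. Detected genes whose precursor shares no 20-base stretch with another miRNA precursor had a median of 180 CPM (320 genes), and those that share one had a median of 159 CPM (87 genes). Over all genes with a count in either pup the order was reversed, with medians of 2.78 CPM for genes that share none and 8.89 CPM for genes that share one. At or above the level of Mir26b were 10 of the 320, itself counted, and 1 of the 87. Of the 87, 58 had at least the level of Mir26a-2 and 69 at least that of Mir26a-1, each counted with itself. These are descriptions, without a test.

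A list of 48 symbols whose mature miRNA is made from 2 or 3 genes gave the closest comparison for the Mir26a pair. Of these symbols, 45 had an entry, 2 of them under a synonym, and 38 were detected, with a median of 167 CPM over the 45. Both Mir26a genes lay below that median: 30 of the 45 were above Mir26a-2 and 15 below it. Below Mir26a-1 lay 13. Mir128-1 and Mir128-2, neuronal miRNA genes in R3hdm1 and Arpp21 that make the same 3′ arm, had 3587 ± 457 and 1649 ± 111 CPM. The Slit-hosted pair Mir218-2 and Mir218-1 had 169 ± 19.9 and 39.5 ± 8.19 CPM. Each of these pairs, like the Mir26a pair, lies in introns of different host genes, and its order of levels was the same in both pups.

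Every one of the 12 genes of a list of families spread over related or paired host genes was detected, at a median of 52.1 CPM, and Mir26b was above each of them. In this list too a family could hold unequal members with sequence of their own. Mir204, in Trpm3, had 8349 CPM in pup 3, against 10549 CPM in pup 1, while Mir211, in Trpm1, had 8.01 and 8.15 CPM. Of the 12, 2 were called lower and 0 higher in pup 3 by the test between the libraries, in which 6.69% of all tested genes were called, 0.984% higher and 5.71% lower.

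The family most like miR-26 in layout is miR-103 and miR-107, which lies in introns of the pantothenate kinase genes Pank1, Pank2 and Pank3, genes of coenzyme A synthesis. The 2 copies of Mir103 make 1 mature 3′ arm and Mir107 makes its own. The arms differ at 1 of 23 bases, G22C (base of miR-103-3p first), with the seed in capitals.
miR-107-3p: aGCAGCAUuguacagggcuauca
miR-103-3p: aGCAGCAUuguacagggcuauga

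Mir107 had 3276 CPM in pup 3, against 3296 CPM in pup 1. Its 2-copy relatives had 25.8 and 92.7 CPM for Mir103-2 and 2.40 and 9.78 CPM for Mir103-1, in pup 3 and pup 1 in that order. Mir107 thus had 116 times the summed counts of the Mir103 genes in pup 3 (interval 100.1 to 135) and 32.1 times in pup 1 (29.4 to 35.2). Unlike Mir26b, Mir107 shares a 20-base stretch with another precursor, so reads within that stretch would not be counted for Mir107. Reads of miR-103-3p with its annotated ends match both Mir103 hairpins and are given to neither, which lowers these genes in advance. Within that limit the gene with an arm of its own stood above the copies in both pups, as with miR-26. The factor was again larger in pup 3. The levels behind this differed between the families: the log2 difference of pup 3 over pup 1 was 0.13 for Mir107 and 0.61 for Mir26b, and both Mir103 genes were called lower in pup 3 while no miR-26 gene was called.

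All 19 seed groups that held both kinds of gene, with at least 1 detected, were then compared, a rule chosen after the values were seen. The highest gene with an arm of its own exceeded the highest gene with a shared arm in both pups in 17 groups. In the other 2, led by Mir24-2 and Mir218-2, the genes with an own arm had 0 counts, and in the group of Mir149 those with a shared arm had 0. In 16 groups both kinds had counts, and Mir26b over Mir26a-2, at 293 times by mean CPM, was the third largest ratio. Mir30e over Mir30c-1 was close to it at 308 times, and Mir410 over Mir344d-3 was the largest at 711 times, with a shared-arm gene under 1 CPM. Mir181c over Mir181a-1 was the smallest at 2.33 times. A seed group can join unrelated miRNAs, and the exclusion of shared-arm reads acts on every group, lowering its shared-arm genes in advance. Groups held up to 8 genes with an own arm and up to 4 with a shared arm. Some genes recur, such as Mir344, the highest shared-arm gene of more than 1 group. Mir125b-1, a gene of the 2-copy list, was placed with the own-arm genes of its group. The count of 17 is therefore a description and not 17 separate results.

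**Figure D4:**
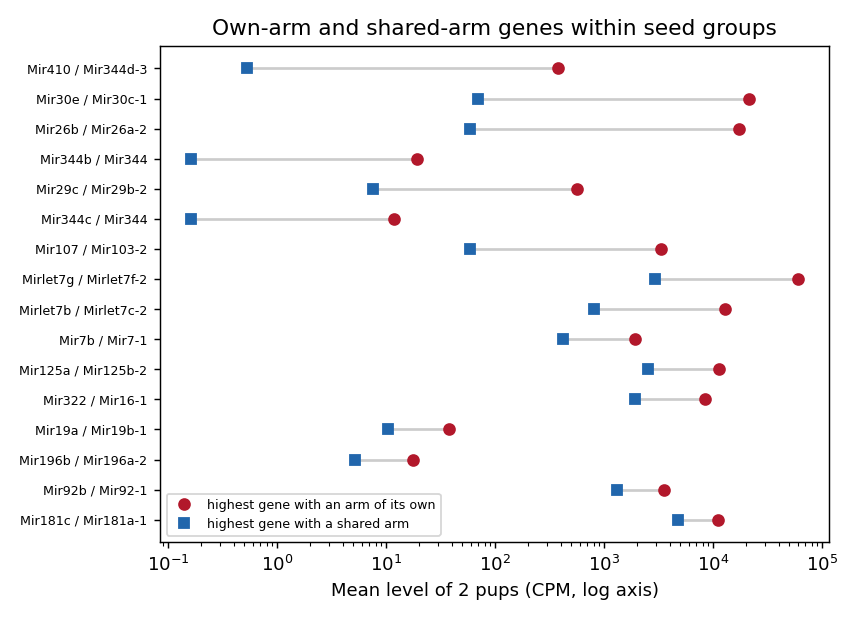
Mean level of the 2 pups (CPM, log axis) of the highest gene with an arm of its own (circle) and the highest with a shared arm (square) in the 16 seed groups in which both had counts, labelled in that order. The circle lies right of the square in each of the 16, and the miR-26 pair spans 17107 to 58.4 CPM.

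The miRNAs linked to the same REST and Ctdsp circuit were taken from a list: the 3 Mir124a genes, whose miRNA is known to repress Ctdsp1, the 3 Mir9 genes, whose miRNA represses Rest, and Mir132 and Mir212, which REST silences. Of the 8 symbols, 7 had an entry and 4 were detected. Mir132 led with 2279 CPM in pup 3, against 2369 CPM in pup 1. Mir9-3 had 386 and 538 CPM, and Mir212 had 101 and 143 CPM, in the same order of pups. The Mir124a genes and Mir9-2 stood under 15 CPM in each pup. All of them, and Mir9-3 as well, share sequence with another precursor, as Mir26a does. By reads placed at 1 gene, Mir26b was above every gene of this list. No gene of the list was called higher in pup 3, and 2 of 7 tested, Mir124a-1 and Mir124a-3, were called lower, beside 0.984% called higher and 5.71% called lower of all tested genes. Mir124a-3 was called on 4 counts in pup 3 and 17 in pup 1 and was not detected at 2 CPM in both.

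Between the libraries, Mir26b was higher in pup 3 by a log2 difference of 0.61, beyond counting error but under the 2-fold needed for a call. By CPM on plain library totals, its level in pup 3 was 1.38 times that in pup 1. Neither Mir26a gene passed the test. Differences are log2 of pup 3 over pup 1 on edgeR TMM library sizes with a pseudocount of 1 CPM. The test was exact and binomial on each gene's pair of counts, two-sided, Benjamini-Hochberg adjusted over 508 genes with at least 10 counts in sum. Genes were called at an adjusted p under 0.05 if they also differed at least 2-fold. This called 6.69% of the tested genes, 0.984% higher and 5.71% lower in pup 3, and 0 of the 3 miR-26 genes. At any fold, 47.6% of tested genes had an adjusted p under 0.05, with 23.8% higher and 23.8% lower in pup 3, and 1 of the 3 miR-26 genes did, Mir26b. These p-values hold counting error only and say nothing of how animals or library preparations vary.

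The log2 difference of Mir26b was 0.61 with a counting error (SE) of 0.0068, and the log10 of its adjusted p in the exact test was -1772. Among detected genes the median size of a log2 difference was 0.27 and the 90th percentile 0.81, and 17.2% of them differed by at least as much as Mir26b. On plain library totals the SD of Mir26b was 22.7% of its mean. On TMM library sizes its mean was 17259 CPM with a larger SD of 5046 CPM. After TMM scaling, edgeR estimated a coefficient of variation between the pups of 0.234 over 412 genes. Mir26a-1 differed by -0.31 (SE 0.25, adjusted p = 0.309, exact binomial test) and Mir26a-2 by -0.13 (SE 0.11, adjusted p = 0.355). The 95% counting intervals ran from -0.80 to 0.18 for Mir26a-1 and from -0.36 to 0.09 for Mir26a-2, so neither excluded a lower level in pup 3 nor an equal one. On plain library totals, which moved the median of all detected genes to -0.14 from -0.01, Mir26a-2 differed by -0.27 and had an adjusted p of 0.0328 in the same exact test, still under 2-fold.

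The Mir26a genes, of which 0 of 2 were called, were set beside other genes with a shared mature miRNA. Of the 42 tested genes of the 2-copy list, 12 (28.6%) were called lower in pup 3 and 0 higher, beside 5.71% and 0.984% of all tested genes. Mir103-2, at a log2 difference of -1.67 (SE 0.13), and Mir103-1, at -1.55 (SE 0.43), were among the 12. Whether Mir26a and those genes differ in this was not tested.

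No gene of like abundance had as high a log2 difference in favour of pup 3 as Mir26b. Some differed by more in the other direction, such as Mir10b at -0.85 and Mir125a at -0.73. Of the 21 detected genes within 2-fold of its mean CPM, 9 were higher in pup 3. Nearest in log2 difference was Mir100, at 0.47, with 27741 CPM in pup 3 and 22112 CPM in pup 1. Mir335, in the imprinted gene Mest, followed at 0.32, Mir135b at 0.24, and Mir382 and Mir22 at 0.15 each. With 2 libraries the likeness rests on 1 difference per gene.

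**Figure D5:**
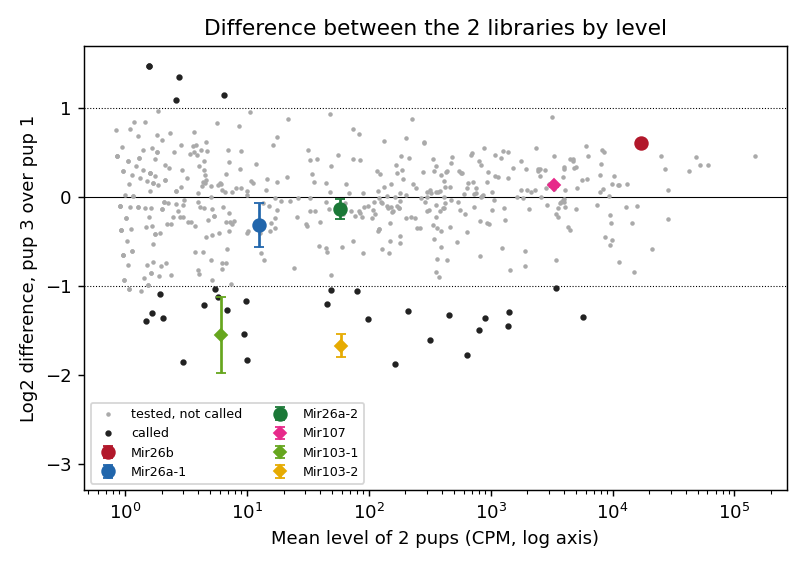
Log2 difference, pup 3 over pup 1 (TMM library sizes, pseudocount 1 CPM), of the 508 tested genes against their mean level (CPM, log axis), with counting SE on the labelled genes and dotted lines at 2-fold. Mir26b lies at 0.61, Mir26a-1 at -0.31 and Mir26a-2 at -0.13, all within the dotted lines, and Mir103-1 and Mir103-2 lie below them.

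The tissue label was checked on markers. Mir137, a neuronal miRNA, had 11340 CPM in pup 3, against 11363 CPM in pup 1. The 3 markers of the Hox clusters active in hindbrain and cord were all detected, at unequal levels. Mir10a had 24602 and 32189 CPM, Mir10b 10051 and 19914 CPM, and Mir196b 15.9 and 19.4 CPM, in the same order. Of 6 neural markers with an entry, 3 were detected, the 3 others being copies of Mir9 and Mir124a. Every Mir9 and Mir124a entry, detected or not, shares sequence with another precursor. Reads of the shared stretch would not be counted, so these levels do not give those of miR-9 and miR-124. The liver miRNA Mir122 was at 45.2 CPM in pup 3 and 44.6 CPM in pup 1, and of 4 muscle genes with an entry Mir206 had 157 CPM in pup 3 and 172 in pup 1. The 3 others, Mir1a-1, Mir133a-1 and Mir133a-2, had 0 counts in both, and each shares sequence with another precursor, so reads of its shared stretch would not be counted. The 3 vessel markers summed to 65476 CPM in pup 3, against 55322 CPM in pup 1, with log2 differences of 0.36 for Mir126a, 0.53 for Mir143 and -0.09 for Mir145a. Red cell markers, 3 of 3, summed to 308 and 498 CPM in the same order of pups, and most of this was Mir451a at 258 and 461 CPM. Mir144, at 27.7 and 16.1 CPM, had a log2 difference of 0.88, and Mir486 one of 0.22. Leukocyte markers, 2 of 3 with an entry, summed to 496 and 700 CPM, with log2 differences of -0.56 for Mir150 and 0.03 for Mir223. Of 6 tested neural markers 2, Mir124a-1 and Mir124a-3, were called lower in pup 3, beside 5.71% called lower of all tested genes. None of the vessel, red cell or leukocyte markers was called. On TMM library sizes each of the 3 sets held differences of both signs, but the CPM of Mir223 was lower in pup 3, at 196 CPM against 212 CPM in pup 1. Their part in the difference of Mir26b was not tested.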

How the data were processed

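MicroRNA-seq libraries of 2 newborn hindbrains, 1 group, were used. Per the text files deposited beside them, each table holds read counts per miRNA gene on mm10 with genome annotation M4. The counts deposited by the authors are whole numbers, not normalized or pooled, in 3 columns (any, own and opposite strand). The own-strand column was used. Neither aligner nor counter is named in the sources used here. Rows that name no gene stayed out of totals and tests: in pup 3 and pup 1 they were 13.9% and 17.7% unmapped, 39.4% and 37.9% at several places and 1.59% and 2.66% in no feature.

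IDs were matched without version to GENCODE M21 (1894 of 1973 matched). Sequences came from the RefSeq miRNA table (GRCm38.p6), in which all 3 members matched. Hairpins were aligned with Biopython 1.88. Scaling used edgeR 4.0.16 (TMM) and DESeq2 1.42.0 (size factors, alternative). With 1 library a pup, no test of pup 3 against pup 1 could include replicate spread, so an exact binomial test (scipy 1.17.1) was used. It was tried on simulated counts that held counting error only, as the test assumes. Such counts cannot show how it behaves with spread between pups. Listed symbols were matched by name or RefSeq synonym. Alternatives changed the scaling, denominator, strand column, count filter, call rule, pseudocount, detection level and copy definition, or left out a pup. Named genes were the members, their neighbours in level, the nearest in difference to Mir26b, and the listed genes. Members and lists were chosen with earlier results of these data known. Nothing states that the pups were prepared separately beyond their replicate numbers, and the spread between them may be technical.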

Additional observations from a re-analysis of the deposited data

How the results depend on the processing

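All 3 miR-26 genes were detected at 1, 5 and 10 CPM and in each pup alone, and the signs of their log2 differences held under every alternative tried (Mir26b 0.47 to 0.70, Mir26a-1 -0.44 to -0.23, Mir26a-2 -0.27 to -0.05). With all reads of the table as denominator, mean levels were 7231 CPM for Mir26b, 5.20 CPM for Mir26a-1, 24.5 CPM for Mir26a-2 and 7261 CPM summed, and 85070 (Mir26b), 57.8 (Mir26a-1) and 291 (Mir26a-2) CPM per kb, by construction of the larger denominator. Without a minimum fold Mir26b, at 0.61, was called, and 121 genes were called in each direction. DESeq2 size factors shifted the log2 differences upward by construction, for Mir26b to 0.70 from 0.61. They gave 8 genes called higher in pup 3 in place of 5, and 25 called lower in place of 29. A minimum of 100 counts gave 0 higher and 18 lower in place of 29, and a pseudocount of 5 CPM gave 0 and 17. By construction the first tests fewer genes and the second shrinks differences of low genes. Medians over genes with a count in either pup were 2.78 CPM for single-copy and 8.89 CPM for multi-copy genes, the reverse of the order among detected genes. No paired analysis was possible because the samples form 1 group. Without either pup, Mir26b ranged from 14363 to 19852 CPM and its ratio to the summed Mir26a genes from 183 to 314, and no difference between pups can be had. Depth limits Mir26a-1, with 65 and 71 counts in pup 3 and pup 1.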
